A study of Mus musculus with 8 samples.

Results

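The 10 genes described here encode cytochrome P450 enzymes of the mouse liver, most of which oxidise drugs and other foreign compounds: Cyp1a2, Cyp2c29, Cyp2c37, Cyp2c50, Cyp2c54, Cyp2c70, Cyp2e1, Cyp3a11, Cyp3a13 and Cyp3a25. Among them, Cyp2c70 acts on bile acids. They were chosen by name, and every probe whose transcript identifier maps to one of them was read, which gave 16 probes among the 25801 probes kept and 10 genes among the 20165 features tested. Liver RNA came from 8 male C57BL/6 mice bought at 5 weeks of age, with no engineered allele and no agent other than the diet stated in the labels. The groups were 2 mice on a high-fat diet (HFD; 58% fat, 5.2 kcal/g) for 3 months, 2 mice on a normal diet (ND; 4.8% fat, 3.8 kcal/g) for 3 months, 2 mice on HFD for 9 months and 2 mice on ND for 9 months. Each mouse had 1 array, so every group mean below is of n = 2.

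Microsomal P450 enzymes sit in the membrane of the endoplasmic reticulum, take electrons from P450 oxidoreductase and insert an oxygen atom into lipophilic substrates, which makes them easier to conjugate and excrete. In liver most of these enzymes are made by hepatocytes, in particular those near the central vein. Their genes are controlled by receptors that sense foreign compounds: the aryl hydrocarbon receptor for the Cyp1a family, the constitutive androstane receptor (Nr1i3) for many Cyp2c genes and the pregnane X receptor (Nr1i2) for the Cyp3a family, with the liver factor Hnf4a acting on several of them.

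The 250 bases upstream of the annotated start were available for 9 of the 10 genes from RefSeq promoters (build GRCm38.p6). The stretches below are those of the genes on which the results turn (Cyp2c29, Cyp2c70 and Cyp3a11) and of the pair Cyp2c37 and Cyp2c50, whose upstream sequences were the most alike. They run 5′ to 3′ toward the gene, and capitals mark the motifs searched: TATAAA on the gene's strand, and on both strands AGGTCA, a half-site of nuclear receptors, CAAAGTCCA, a core bound by Hnf4a, and GCGTG, the core bound by the aryl hydrocarbon receptor.
Cyp2c29 (chr19:39286835-39287084, plus strand): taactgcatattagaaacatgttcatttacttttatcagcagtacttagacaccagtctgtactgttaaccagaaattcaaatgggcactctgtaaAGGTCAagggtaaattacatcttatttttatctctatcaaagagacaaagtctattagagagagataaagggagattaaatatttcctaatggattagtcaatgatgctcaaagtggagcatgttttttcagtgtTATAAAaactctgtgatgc
Cyp2c70 (chr19:40187287-40187536, minus strand): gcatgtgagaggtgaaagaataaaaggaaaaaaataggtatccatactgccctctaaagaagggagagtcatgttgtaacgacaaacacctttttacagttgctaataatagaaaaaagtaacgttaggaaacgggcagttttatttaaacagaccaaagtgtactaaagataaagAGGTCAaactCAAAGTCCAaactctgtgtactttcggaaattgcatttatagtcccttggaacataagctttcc
Cyp3a11 (chr5:145879855-145880104, minus strand): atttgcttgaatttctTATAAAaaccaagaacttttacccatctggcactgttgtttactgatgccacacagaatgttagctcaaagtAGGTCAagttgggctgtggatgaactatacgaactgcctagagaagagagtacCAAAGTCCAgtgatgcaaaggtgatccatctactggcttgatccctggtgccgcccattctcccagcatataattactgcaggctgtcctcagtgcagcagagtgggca
Cyp2c37 (chr19:39992174-39992423, plus strand): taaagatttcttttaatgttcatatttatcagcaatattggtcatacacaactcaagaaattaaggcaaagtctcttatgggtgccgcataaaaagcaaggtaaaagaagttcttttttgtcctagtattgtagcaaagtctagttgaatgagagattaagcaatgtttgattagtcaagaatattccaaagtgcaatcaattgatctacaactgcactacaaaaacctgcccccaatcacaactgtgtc
Cyp2c50 (chr19:40089429-40089678, plus strand): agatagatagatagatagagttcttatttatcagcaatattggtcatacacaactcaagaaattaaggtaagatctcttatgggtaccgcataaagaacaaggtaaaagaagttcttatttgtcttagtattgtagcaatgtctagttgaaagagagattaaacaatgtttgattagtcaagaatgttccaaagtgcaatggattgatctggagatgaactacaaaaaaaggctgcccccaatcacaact
None of the marked sites overlap. CAAAGTCCA occurred upstream of Cyp2c70, at positions -64 to -56 from the start, and of Cyp3a11, at -109 to -101, and it is found in 0.384% of the 32851 upstream stretches of the same length. AGGTCA lay upstream of 4 of the genes (Cyp2c29, Cyp2c70, Cyp3a11 and Cyp3a25), against 14.0% of all stretches, and TATAAA upstream of 4 (Cyp1a2, Cyp2c29, Cyp2e1 and Cyp3a11), against 7.59%. GCGTG was in none of the 9 genes' windows and in 28.2% of all stretches. The Cyp2c37 and Cyp2c50 stretches were identical at 84.3% of 255 aligned columns, while the other pairs of stretches reached 47.7% to 57.6%. These matches describe the letters of the windows and are not evidence of binding.

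Signals below are log2 values of the processed intensity relative to the 75th percentile of each array, and a value is compared only with values of the same probe. That percentile was 185.4 to 428.2 intensity units on HFD arrays and 482 to 596.5 on ND arrays, with the lowest value on HFD 9 months replicate 2. The 4 HFD arrays were on 1 slide and the 4 ND arrays on the other, so diet and slide cannot be told apart, and feeding time goes with the row on the slide. All 16 probes were well above background on all 8 arrays and no spot was saturated. Hepatocyte markers had mean log2 signals of 8.02 to 8.28 on HFD arrays and 8.42 to 8.69 on ND arrays, over 18 measured genes of 20. In whole liver, fewer cells of a type and less RNA per cell cannot be told apart.

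**Figure D1:**
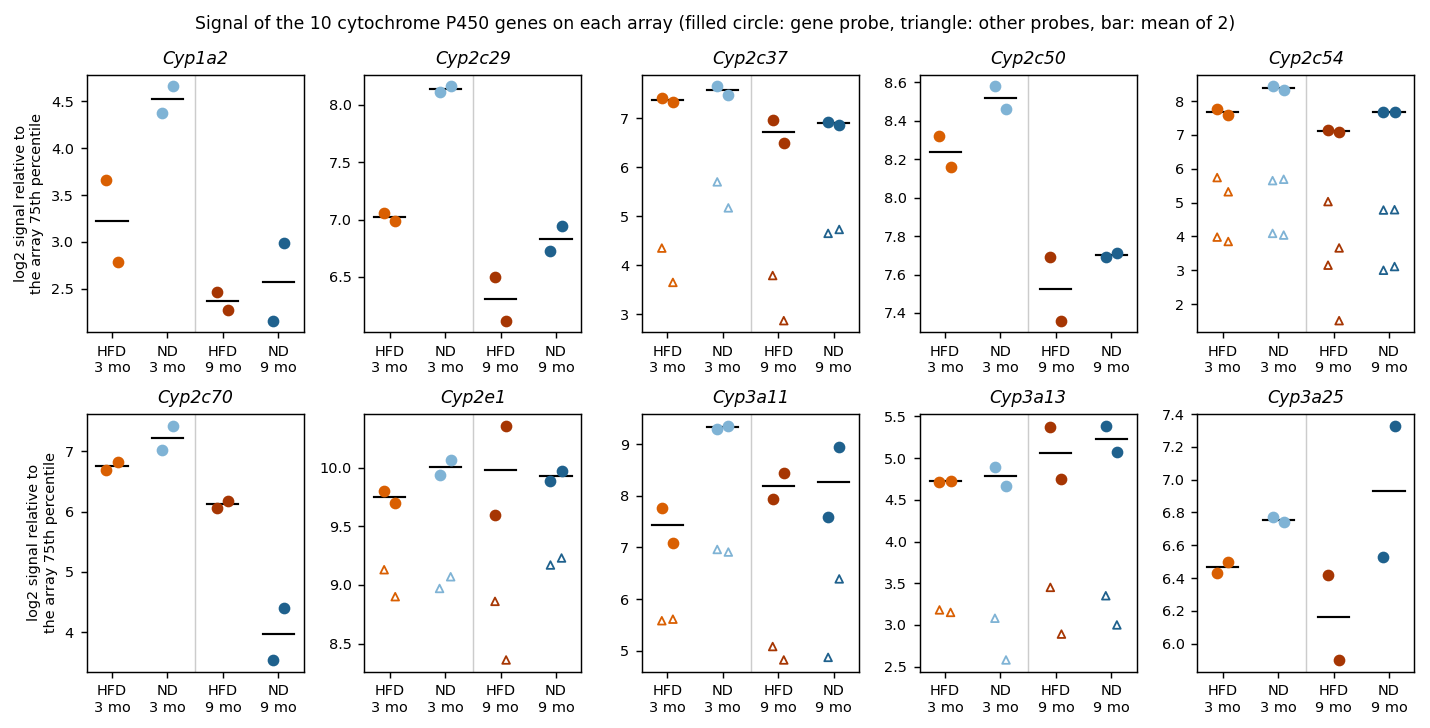
Log2 signal of each of the 10 P450 genes on each of the 8 arrays, relative to the 75th percentile of the array, by diet and feeding time. Filled circles are the probe that stands for the gene, open triangles its other probes, and bars the mean of 2 mice. The 2 ND 3 months arrays are above all 6 others for the filled circles of Cyp1a2, Cyp3a11 and the 5 Cyp2c genes, and Cyp2c70 is lowest in the ND 9 months mice.

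Cyp1a2, which oxidises caffeine and aromatic amines, had log2 signals of 3.66 and 2.79 in HFD 3 months mice and 4.38 and 4.66 in ND 3 months mice. At 9 months it had 2.47 and 2.27 in HFD mice and 2.16 and 2.99 in ND mice. The ND 3 months mice were the highest of the 8, and the ranges of the other 3 groups ran into each other when ordered by their means.

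The Cyp2c genes make epoxides and hydroxy acids from arachidonic and linoleic acid in mice, and several of them also oxidise drugs. Cyp2c29 had 7.06 and 6.99 in HFD 3 months mice against 8.11 and 8.16 in ND 3 months mice, and 6.50 and 6.12 in HFD 9 months mice against 6.73 and 6.94 in ND 9 months mice. Its 4 groups did not overlap, with the means in the order ND 3 months, HFD 3 months, ND 9 months and HFD 9 months. Cyp2c54 had 7.77 and 7.59 in HFD 3 months mice and 8.44 and 8.32 in ND 3 months mice. In the 9 months mice Cyp2c54 had 7.16 and 7.10 on HFD and 7.67 and 7.68 on ND, and only the HFD 3 months and ND 9 months groups overlapped among neighbours in that order. Cyp2c37 had 7.42 and 7.33 in HFD 3 months mice, 7.65 and 7.48 in ND 3 months mice, 6.96 and 6.49 in HFD 9 months mice and 6.93 and 6.87 in ND 9 months mice. Cyp2c50 had 8.32 and 8.16 in HFD 3 months mice, 8.58 and 8.46 in ND 3 months mice, 7.69 and 7.36 in HFD 9 months mice and 7.69 and 7.71 in ND 9 months mice. In both of these genes every 9 months mouse was below every 3 months mouse, and the diets overlapped at 9 months but not at 3 months.

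Cyp2c70, which makes muricholic acids from other bile acids in mice, had 6.70 and 6.82 in HFD 3 months mice, 7.02 and 7.43 in ND 3 months mice, 6.07 and 6.18 in HFD 9 months mice and 3.54 and 4.40 in ND 9 months mice. No 2 groups overlapped, and the ND 9 months mice were the lowest, while they were not the lowest for any of the other 9 genes by group means. The order of the group means was shared by Cyp2c38, Cyp2c55 and Cyp1a1, relatives outside the 10 genes. Cyp2c38 averaged 6.96 in HFD 3 months mice, 7.38 in ND 3 months mice, 5.99 in HFD 9 months mice and 5.80 in ND 9 months mice. Cyp2c55 and Cyp1a1 were well above background on 1 of the 2 arrays of each 9 months group. Another relative, Cyp2c67, also had its lowest mean in ND 9 months mice (6.69). They were named after their values were seen.

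Cyp2e1, which oxidises ethanol, acetone and paracetamol, had 9.80 and 9.70 in HFD 3 months mice, 9.94 and 10.07 in ND 3 months mice, 9.60 and 10.36 in HFD 9 months mice and 9.89 and 9.97 in ND 9 months mice. It varied over 0.76 log2 units on all arrays, and the 2 HFD 9 months mice held both the lowest and the highest value.

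The Cyp3a genes metabolise steroids and a wide range of drugs. Cyp3a11, the main Cyp3a gene of adult mouse liver, had 7.76 and 7.09 in HFD 3 months mice, 9.29 and 9.36 in ND 3 months mice, 7.93 and 8.45 in HFD 9 months mice and 7.58 and 8.94 in ND 9 months mice. The 2 ND 9 months mice lay on either side of both HFD 9 months mice, and the within-group SD of 0.57 was the largest of the 10 genes. Cyp3a25 had 6.43 and 6.50 in HFD 3 months mice, 6.77 and 6.74 in ND 3 months mice, 6.42 and 5.90 in HFD 9 months mice and 6.53 and 7.33 in ND 9 months mice, with every HFD mouse below every ND mouse. Cyp3a13 had 4.71 and 4.73 in HFD 3 months mice, 4.89 and 4.67 in ND 3 months mice, 5.37 and 4.75 in HFD 9 months mice and 5.39 and 5.07 in ND 9 months mice. Its 4 groups overlapped with their neighbours in the order of means, over a range of 0.72.

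After 3 months of feeding, 1 of the 10 genes, Cyp2c29, fell on HFD. It averaged 7.03 ± 0.050 in HFD mice and 8.13 ± 0.038 in ND mice (SD, n = 2 each), a log2 change of -1.11 ± 0.20 (SE), or 2.15-fold lower, at an adjusted p of 0.0359 in limma's test over all features. The share of all 20165 features called in either direction was 5.18%, and 3.67% were called lower. All 10 log2 changes were below 0, with a median of -0.38 against -0.01 over all features, of which 50.5% were below 0, but 3 to 4 of them turned above 0 under each of 3 other scalings: Cyp2c37, Cyp2c50 and Cyp2e1 under all 3, Cyp3a13 under quantile normalization and Cyp3a25 in the authors' value table. Hepatocyte markers moved with them, with a median change of -0.52 that was -0.05 to -0.07 under those scalings; their part in the result was not tested.

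The largest change by size was that of Cyp3a11, at -1.90 ± 0.48 on the log2 scale (3.72-fold lower on HFD), and it missed the threshold at an adjusted p of 0.0725 by limma. Cyp1a2 differed by -1.30 ± 0.39 (adjusted p = 0.102) and Cyp2c54 by -0.70 ± 0.17 (adjusted p = 0.0653 by limma), both without a call. The changes of Cyp2c70 (-0.46 ± 0.31), Cyp3a25 (-0.30 ± 0.31), Cyp2c50 (-0.28 ± 0.19), Cyp2e1 (-0.25 ± 0.27), Cyp2c37 (-0.19 ± 0.21) and Cyp3a13 (-0.06 ± 0.26) had adjusted p of 0.380 to 0.894. Under the scaling reported, both HFD mice lay below both ND mice in 9 of the 10 genes and in 35.4% of all features. The same held for 15 of 18 hepatocyte markers and 15 of 15 measured male-biased liver genes. The call of Cyp2c29 was lost when any 1 of the 4 mice of this comparison was left out (adjusted p of 0.0982 to 0.272 by limma, log2 changes of -1.14 to -1.07) under quantile normalization (-0.83, adjusted p = 0.0782) and with no filter on dim probes (0.153).

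**Figure D2:**
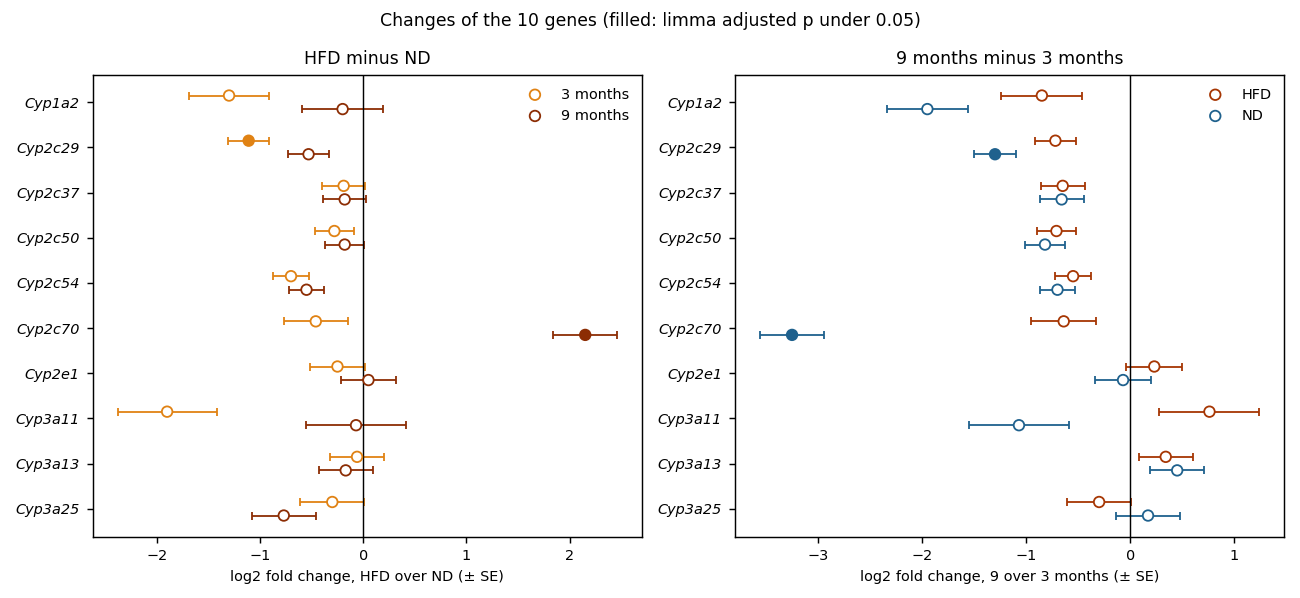
Log2 fold changes of the 10 genes with the SE from limma, HFD over ND at 3 and 9 months (left) and 9 over 3 months on HFD and on ND (right). Filled circles passed an adjusted p of 0.05, which Cyp2c29 and Cyp2c70 did in 2 comparisons each.

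After 9 months, 1 of the 10 genes, Cyp2c70, rose on HFD relative to ND. It averaged 6.12 ± 0.078 in HFD mice and 3.97 ± 0.61 in ND mice (SD, n = 2 each), a log2 change of 2.15 ± 0.31 (SE), or 4.45-fold higher, at an adjusted p of 0.0161 by limma. Of all features 8.28% were called, and 3.56% were called higher. Leaving out any 1 mouse kept the call (adjusted p of 0.0293 to 0.0452, log2 changes of 1.73 to 2.58). The HFD 9 months mice lay below all 4 of the 3 months mice, and the ND 9 months mice were lower still. With no filter on dim probes the adjusted p was 0.0622 at the same log2 change, among more features tested.

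The remaining genes did not pass at 9 months. Cyp3a25 was lower on HFD by -0.77 ± 0.31 (adjusted p = 0.168), Cyp2c54 by -0.55 ± 0.17 (0.0954) and Cyp2c29 by -0.53 ± 0.20 (0.147), on the log2 scale and by limma. These 3 genes had both HFD mice below both ND mice, where 26.1% of all features did. The others ranged from -0.20 ± 0.39 for Cyp1a2 to 0.05 ± 0.27 for Cyp2e1, with Cyp3a11 at -0.07 ± 0.48. Their direction turned with the scaling for Cyp3a11 (0.14 to 0.21 under 3 other scalings) and Cyp2c50 (0.04 under 1 of them).

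**Figure D3:**
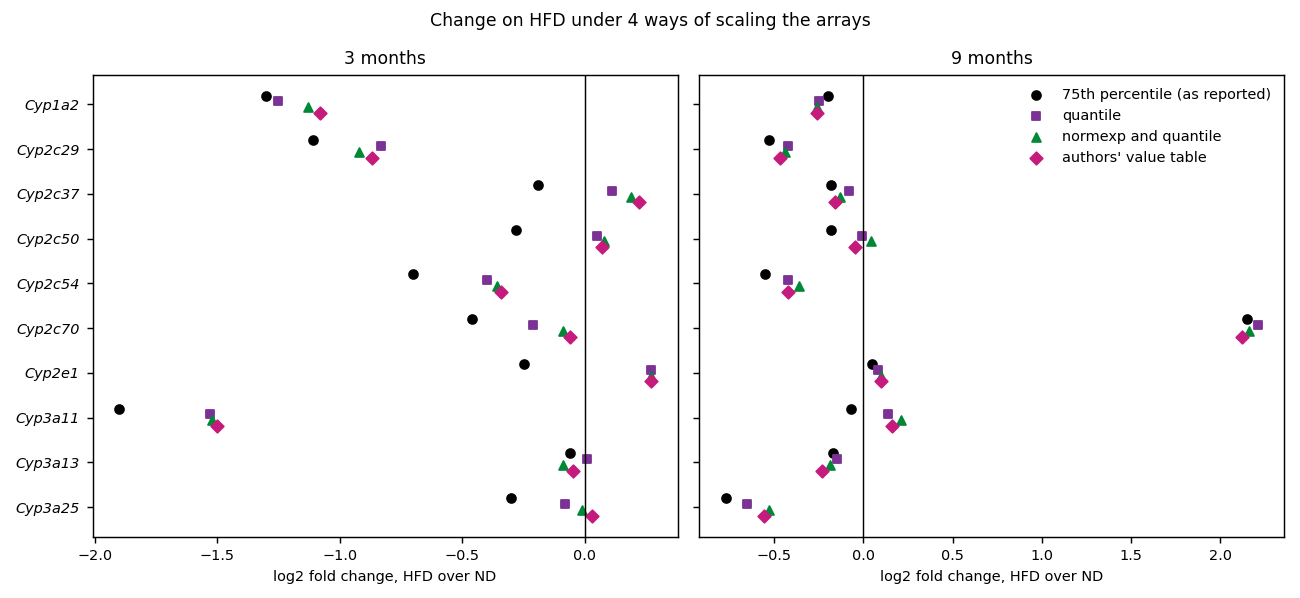
Log2 fold change of each gene on HFD over ND at 3 months (left) and 9 months (right) under the scaling reported, quantile normalization, normexp correction with quantile normalization, and the authors' value table. At 3 months the other scalings lie to the right of the one reported for all 10 genes except Cyp3a13 in 1 case, and Cyp2c29, Cyp1a2 and Cyp3a11 stay below 0 under each.

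The change on HFD was itself compared between feeding times. For Cyp2c70 the difference between 9 and 3 months was 2.61 ± 0.44 (unadjusted p = 0.00086 in the fit over all features, adjusted p = 0.284 by limma), and for Cyp3a11 it was 1.83 ± 0.67 (adjusted p = 0.626). Cyp1a2 had an adjusted p of 0.707, and the other 7 genes had differences of -0.47 to 0.58. limma called 0 of the 10 genes, 2 of which had an unadjusted p under 0.05, and 0% of all features, 1537 of which had one. Under 3 of the other settings 1 feature was called, and it was none of the 10 genes.

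With both feeding times in one fit and time as a covariate, Cyp2c29 and Cyp2c54 fell on HFD. The log2 change was -0.82 ± 0.17 for Cyp2c29 (1.76-fold lower, adjusted p = 0.0178 by limma) and -0.62 ± 0.12 for Cyp2c54 (1.54-fold lower, adjusted p = 0.0130). This fit called 22.1% of all features and 11.8% lower, and 2 of 10 is close to that background. The Cyp2c29 call was lost without HFD 3 months replicate 1 or either ND 3 months mouse (adjusted p of 0.0505 to 0.0651), and the Cyp2c54 call without either ND 3 months mouse (0.0561 and 0.0515). Cyp2c54 passed under the scaling reported and not under the 3 others (-0.41 to -0.36, adjusted p of 0.0542 to 0.0743), nor as the mean of its 3 probes (-0.45, 0.187). With no filter on dim probes the adjusted p was 0.0629 for Cyp2c54 and 0.0577 for Cyp2c29. Cyp3a25, with -0.53 ± 0.22 (adjusted p = 0.125), was the one gene in which all 4 HFD mice lay below all 4 ND mice, as 14.0% of all features did. The other changes ran from -0.98 ± 0.46 for Cyp3a11 to 0.85 ± 0.52 for Cyp2c70.

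Between 3 and 9 months on ND, Cyp2c70 and Cyp2c29 fell. Cyp2c70 changed by -3.25 ± 0.31 on the log2 scale, or 9.54-fold lower at 9 months (adjusted p = 0.0226 by limma), and Cyp2c29 by -1.30 ± 0.20, or 2.46-fold lower (adjusted p = 0.0489). Of all features 1.04% were called, and 0.595% were called lower. Cyp1a2 was lower by -1.95 ± 0.39 (adjusted p = 0.0867), Cyp3a11 by -1.07 ± 0.48 (0.346), Cyp2c50 by -0.82 ± 0.19 (0.114), Cyp2c54 by -0.70 ± 0.17 (0.120) and Cyp2c37 by -0.66 ± 0.21 (0.213), all without a call. Those 7 genes had both 9 months mice below both 3 months mice, as 37.1% of all features did, while Cyp2e1 (-0.07 ± 0.27), Cyp3a25 (0.17 ± 0.31) and Cyp3a13 (0.45 ± 0.26) did not. The same order was found in 30 of 34 conjugating enzymes, 22 of 30 phase 1 enzymes outside the P450 family and 8 of 10 other Cyp1a, Cyp2c, Cyp2e and Cyp3a genes. The Cyp2c70 call was lost without ND 9 months replicate 1 (-2.82, adjusted p = 0.0623) and without either ND 3 months mouse (-3.46 and -3.05, adjusted p of 0.185 and 0.210). The Cyp2c29 call was lost without any 1 of these 4 ND mice (adjusted p of 0.0904 to 0.390), without either HFD 3 months mouse (0.087) under quantile normalization (-1.11, 0.0821), as the mean of all probes of each gene (0.0508) and with no filter (0.245). With no filter the adjusted p of Cyp2c70 was 0.0971.

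On HFD none of the 10 genes passed between 3 and 9 months, and 0.00992% of all features did. By limma 4 of the 10 had an unadjusted p under 0.05: Cyp2c29 changed by -0.72 ± 0.20, Cyp2c50 by -0.71 ± 0.19, Cyp2c37 by -0.65 ± 0.21 and Cyp2c54 by -0.55 ± 0.17, with adjusted p of 0.207 to 0.259. Cyp1a2 (-0.85 ± 0.39), Cyp2c70 (-0.64 ± 0.31) and Cyp3a25 (-0.30 ± 0.31) were also lower at 9 months, and Cyp3a11 (0.76 ± 0.48), Cyp3a13 (0.34 ± 0.26) and Cyp2e1 (0.23 ± 0.27) higher. In 7 genes both 9 months mice lay below both 3 months mice, against 23.3% of all features. So did 14 of 34 conjugating enzymes, 17 of 30 phase 1 enzymes outside the P450 family and 6 of 10 other Cyp1a, Cyp2c, Cyp2e and Cyp3a genes. Without HFD 9 months replicate 1, limma called Cyp2c29 (-0.91, adjusted p = 0.0444), Cyp2c37 (-0.88, 0.0437) and Cyp2c50 (-0.88, 0.0438), while 1933 features were called in place of 2. The direction of Cyp2e1 turned under the 3 other scalings (-0.12 to -0.08).

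The comparisons of the same diet or the same time share mice, and 6 of the 10 genes had a lower mean at 9 than at 3 months on both diets, among them all 5 Cyp2c genes. Of all 20165 features, 10154 had a lower mean at 9 months on HFD and 11557 on ND, and the share lower on both was not counted. The 2 comparisons over time share no mouse, but feeding time goes with the row on both slides.

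More than 1 probe was present for 5 genes, and the probes of a gene did not always move alike. Cyp2c37 is represented by probe A_51_P498882, whose change over both feeding times was -0.18 ± 0.14 on HFD. Its dimmer probe A_55_P1964483 had 4.35 and 3.65 in HFD 3 months mice, 5.70 and 5.17 in ND 3 months mice, 3.79 and 2.87 in HFD 9 months mice and 4.65 and 4.73 in ND 9 months mice. Every HFD mouse was below every ND mouse, and this probe fell on HFD over both times by -1.40 ± 0.26 (adjusted p = 0.0126 by limma over all 25801 probes). Cyp2c37 thus has 1 probe past the threshold and 1 that is not.

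The 2 probes of Cyp3a11 both lay below 0 at 3 months, at -1.90 and -1.34, but between 3 and 9 months on HFD one was at 0.76 and the other at -0.65. For Cyp2e1 the 2 probes differed in the HFD 9 months mice, in which replicate 2 minus replicate 1 was 0.76 for the probe reported and -0.50 for the other, and the log2 change on HFD at 9 months was 0.05 against -0.59. The 3 probes of Cyp2c54 all lay below 0 in each comparison of diets (-0.70 to -0.14 at 3 months, -0.72 to -0.44 at 9 months), and the 2 of Cyp3a13 differed in direction at 3 months (-0.06 and 0.33). The Cyp2c and Cyp3a families hold close relatives, and cross-hybridisation of their probes was not tested.

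Other genes of the Cyp1a, Cyp2c, Cyp2e and Cyp3a subfamilies were measured for 10 of the 17 on a list chosen by name. At 3 months 1 of them fell on HFD, with all 10 below 0 and a median of -0.89: Cyp2c39, a retinoic acid-metabolising gene in mice, had 5.20 and 5.52 in HFD mice and 7.02 and 6.93 in ND mice, a change of -1.61 ± 0.24 (adjusted p = 0.0237 by limma). With 1 array left out in turn this change ran from -1.77 to -1.45, and its call was not always kept. Over both feeding times 4 fell and 0 rose: Cyp2c39 (-1.27 ± 0.20), Cyp3a16 (-1.39 ± 0.34), Cyp3a59 (-1.14 ± 0.31) and Cyp3a57 (-0.95 ± 0.28), with adjusted p of 0.00751 to 0.0479 by limma. Of all features 11.8% were called lower in that comparison and 10.3% higher, and 3.67% were called lower at 3 months. Cyp3a57 passed under none of the 3 other scalings (adjusted p of 0.0821 to 0.101), and its call and those of Cyp3a16 and Cyp3a59 were lost with 6 to 8 of the 8 arrays left out in turn. Cyp3a16 had 4.84 and 4.97 in HFD mice and 6.82 and 6.75 in ND mice at 3 months. At 9 months 1 rose, Cyp1a1, another target of the aryl hydrocarbon receptor, by 1.96 ± 0.42 (adjusted p = 0.0433); it was well above background on 1 of the 2 arrays of each 9 months group, and its change was 0.54 to 1.86 under the 3 other scalings, 1 of which called it (adjusted p up to 0.0924), as did 1 of the 8 fits without 1 array. Between 3 and 9 months on ND 1 fell, Cyp2c55, by -4.84 ± 0.73 (adjusted p = 0.0475), with 1 of 2 ND 9 months arrays well above background; under the other scalings its change was -5.00 to -2.36, and 2 of those 3 called it, as did 1 of the 8 fits without 1 array (adjusted p up to 0.340).

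P450 genes of other families that act on foreign compounds were measured for 21 of 24. Among them 3 rose and 4 fell on HFD over both feeding times, with a median of -0.34 that was -0.29 to -0.08 under the other scalings. Cyp2b13 rose by 6.86 ± 0.77 and Cyp2b9 by 5.00 ± 0.67 (adjusted p of 0.00234 and 0.00417 by limma), from means of -2.04 and -2.58 on ND. Cyp2b10, the usual target of the constitutive androstane receptor, rose by 3.82 ± 0.60 (14.2-fold, adjusted p = 0.00666 by limma), whereas Cyp2d34 fell by -0.85 ± 0.12 (adjusted p = 0.0055). Cyp2b13 is also on a list of female-biased liver genes (13 of 21 measured), which had 8 that rose and 2 that fell, with a median of 1.90. Male-biased liver genes (15 of 17) had 0 that rose and 8 that fell, with a median of -1.51. P450 genes of steroids, bile acids and fatty acids (18 of 18 measured) had 6 that fell and 0 that rose over both times, with a median of -0.59. At 3 months 2 of them rose, Cyp4a10 by 1.34 ± 0.20 and Cyp4a31 by 1.03 ± 0.21 (adjusted p of 0.0252 and 0.0478 by limma), and 2 fell. At 9 months Cyp4a10 fell by -1.05 ± 0.20 and Cyp4a31 by -1.44 ± 0.21 (adjusted p of 0.0334 and 0.0161 by limma). Over both times Cyp7b1, which hydroxylates oxysterols, fell by -1.31 ± 0.29 and Cyp17a1, a steroid hydroxylase, by -2.47 ± 0.48 (adjusted p of 0.0215 and 0.0137 by limma). Cyp7b1 was called in 3 of the 8 fits without 1 array. Conjugating enzymes, which act on the products of P450 enzymes, were measured for 34 of 40 and had 1 that rose and 3 that fell, with a median of -0.04 that lay at 0.01 to 0.02 under the other scalings. The pericentral hepatocyte genes outside the P450 family, which share the liver zone of most of the 10 genes, had 4 of 24 that rose and 0 that fell, with a median of 0.16. Periportal hepatocyte genes (23 measured) had 3 that rose and 6 that fell, with a median of -0.60; under the other scalings 1 to 4 fell and the median was -0.41 to -0.36. Over all features the median was 0.00, and 10.3% were called higher and 11.8% lower.

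**Figure D4:**
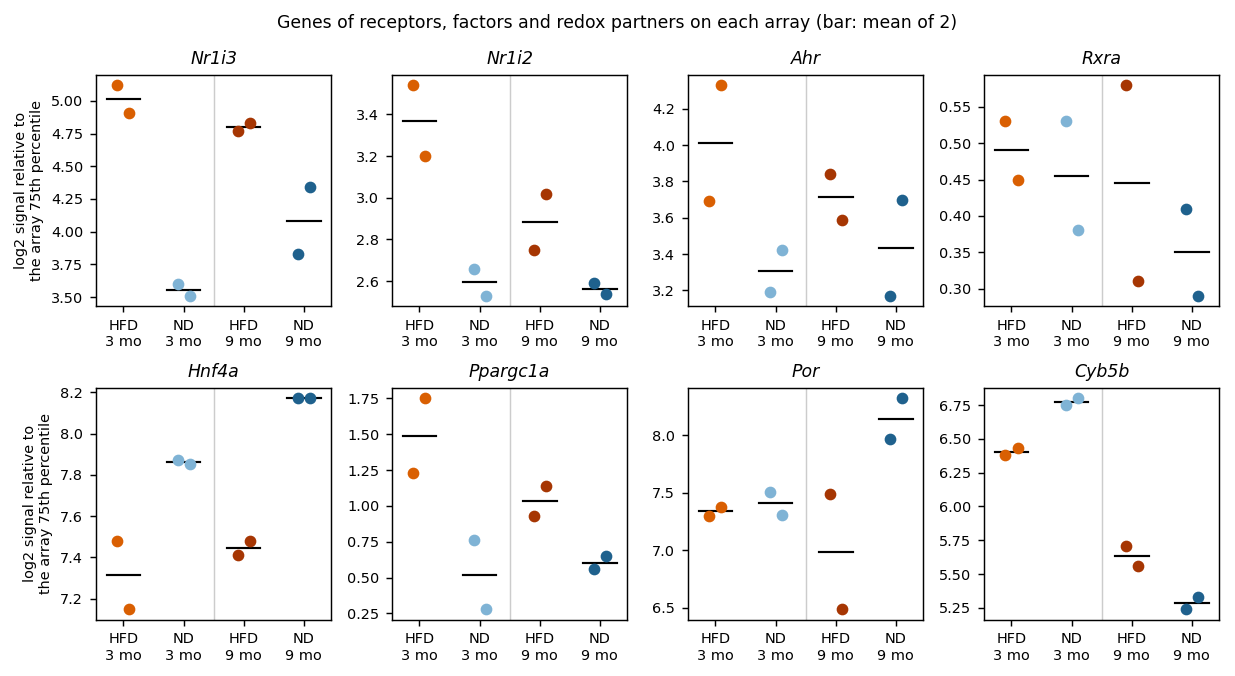
Log2 signal of 8 receptors, factors and redox partners of P450 genes on each array, relative to the 75th percentile of the array, with the mean of 2 mice as a bar. Every HFD mouse is above every ND mouse for Nr1i3, Nr1i2 and Ppargc1a, and below for Hnf4a.

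Among the receptors, factors and redox partners of P450 genes, measured for 21 of 22, 1 rose on HFD at 3 months, none passed at 9 months, and over both feeding times 3 rose and 1 fell. Of all features 5.18% were called at 3 months and 8.28% at 9 months, and over both times 10.3% were called higher and 11.8% lower. Nr1i3, the constitutive androstane receptor, had 5.12 and 4.91 in HFD 3 months mice against 3.60 and 3.51 in ND 3 months mice, and 4.77 and 4.83 in HFD 9 months mice against 3.83 and 4.34 in ND 9 months mice. Every HFD mouse was above every ND mouse, and the change was 1.46 ± 0.22 at 3 months (adjusted p = 0.0253 by limma) and 1.09 ± 0.20 over both (adjusted p = 0.0119). The call at 3 months was lost in 4 of the 8 fits without 1 array (adjusted p up to 0.215), and that over both times in 0. The pregnane X receptor gene Nr1i2 rose by 0.55 ± 0.16 over both times (adjusted p = 0.0487) and the coactivator gene Ppargc1a by 0.70 ± 0.20 (adjusted p = 0.0454). Hnf4a had 7.48 and 7.15 in HFD 3 months mice, 7.87 and 7.85 in ND 3 months mice, 7.41 and 7.48 in HFD 9 months mice and 8.17 and 8.17 in ND 9 months mice. It fell by -0.64 ± 0.13 over both times (adjusted p = 0.0155 by limma), with no overlap between diets, but did not pass under any of the 3 other scalings (-0.39 to -0.32, adjusted p of 0.0854 to 0.148). Nr1i3 passed under all 3 of them (1.11 to 1.22), and Nr1i2 and Ppargc1a under 2. Leaving out 1 array at a time ended the Ppargc1a call in 8 of 8 cases and the Nr1i2 call in 7.

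The aryl hydrocarbon receptor gene Ahr (0.49 ± 0.21, adjusted p = 0.130), the partner receptor gene Rxra (0.07 ± 0.13, 0.727) and the oxidoreductase gene Por (-0.61 ± 0.30, 0.176) did not pass over both times by limma. Cyb5b, a cytochrome b5 of the outer mitochondrial membrane, fell between 3 and 9 months on ND by -1.49 ± 0.16 (adjusted p = 0.0271 by limma), a call made in 2 of the 8 fits without 1 array (adjusted p up to 0.282).

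Markers of other liver cells differed between diets as well. Stellate cell and fibroblast markers (11 of 12 measured, Des without a kept probe) had mean log2 signals of 0.89 to 1.30 on HFD arrays and -0.48 to 0.07 on ND arrays, and 9 of 11 rose over both times. Macrophage and Kupffer cell markers (19 of 22) had 1.16 and 1.28 on HFD and -0.47 and 0.01 on ND arrays at 3 months, and 1.93 and 2.24 on HFD and 0.62 and 2.04 on ND arrays at 9 months. Adipocyte markers (5 of 9, with Adipoq, Lep, Plin1 and Retn without a kept probe) had 4.19 to 5.08 on HFD and 0.45 to 2.75 on ND arrays. The 5 measured were Cidec, Fabp4, Cfd, Car3 and Cidea, of which Car3 averaged 9.58 in ND 3 months mice. Whether adipocytes were present was not tested. Endothelial markers (17 of 17) had 5 that rose and 1 that fell over both times. Erythroid markers (5 of 7) had 5.86 and 7.80 on HFD 9 months arrays and 5.45 and 5.00 on ND 9 months arrays, and neutrophil markers (4 of 9) had -0.79 and 2.07 on HFD 9 months and 0.02 and -1.35 on ND 9 months arrays, so that HFD 9 months replicate 2 was the highest of the 8 arrays in both. No gene of either list passed under the scaling reported, and 1 to 2 erythroid genes passed over both times under the others. The hepatocyte list had 0 that rose and 3 of 18 that fell over both times, with a median of -0.39 that was -0.13 to -0.07 under the other scalings. T and NK cell markers (8 of 14) had 0 that rose and 3 that fell over both times, but 5 of the 8 lay above 0 and the median was 0.21. B and plasma cell markers (6 of 10) had 0 and 1, with 4 of the 6 above 0 and a median of 0.52. Cholangiocyte markers (5 of 8) had 1 and 1. Beside these counts, 10.3% of all features were called higher and 11.8% lower over both times. The part of these cell types in the changes of the P450 genes was not tested.

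The genes whose profile over the 8 arrays was most like that of a subfamily's first gene were found by the root mean square difference in log2 signal after each gene's mean was taken off. For Cyp2c29 they were Ethe1 (0.09), Ces2a (0.18) and Rilp (0.21), against an SD of 0.72 for Cyp2c29 itself. For Cyp1a2 they were Dct (0.29), Tube1 (0.30) and Ces2a (0.30), against an SD of 0.96. For Cyp3a11 they were Proser3 (0.30), Chad (0.30) and Cyp7b1 (0.37), against an SD of 0.84, and for Cyp2e1 they were Rps16, Rps10 and Coprs (0.07 each), against an SD of 0.23. The 8 arrays share the slide and scaling differences described above.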

How the data were processed

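Liver RNA of 8 mice was labelled with Cy3 and hybridised to Agilent arrays, 1 array per mouse, per the labels' protocols. The deposited intensity values come from Agilent Feature Extraction 10.7.1.1, per the submitters' processing notes, and the processed signal has, per the file headers, been background-subtracted and detrended but not scaled between arrays. The median spot and background intensity columns are uncorrected, and the deposited flags are other values, 0 or 1. The authors' value table holds log2 values that keep the order of the median signals of every array (rank correlation of 1), and every column has a median of 7.14; its scale and direction follow from this. At equal ranks its columns differed by at most 0.0286, and the step that made them alike is not given in the sources used here.

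Control spots (3671) and spots with an outlier flag were left out, log2 processed signals were centred on the 75th percentile of the 59305 other spots of each array, and replicate spots were averaged, with a pseudocount of 0. Probes well above background in both mice of any group were kept (25801), and the brightest kept probe stands for a gene. Transcript identifiers matched symbols for 26056 probes in a RefSeq table of GRCm38.p6; the array design uses mm9, so the table served for names. Upstream sequences are RefSeq's, of GRCm38.p6.

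limma 3.58.1 in R 4.3.3 (version 1.17.8 of data.table) was fitted to the 4 group means (lmFit, eBayes; 4 residual degrees of freedom, prior of 2.33) and, for diet over both times, with time as a covariate; calls are at a Benjamini-Hochberg adjusted p under 0.05 over all features. The number of arrays limits the precision. The labels name separate mice, so p-values measure the spread between mice together with that between arrays. Mouse numbers are repeated across groups and do not pair the mice. Python 3.11.15 with pandas 2.3.3, numpy 2.4.6 and matplotlib 3.10.9 made the figures; upstream stretches were aligned with Biopython 1.88.

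All 10 genes are named in every comparison. From other lists, up to 4 called genes with the smallest p per comparison and any receptor, factor or redox partner may be named, and 3 genes of most similar profile for Cyp1a2, Cyp2c29, Cyp2e1 and Cyp3a11. The genes and lists were chosen with earlier results of these data known. Alternatives were other scalings and starting values, filters, probe rules, moderation, a replicate block and leaving out each array.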

Additional observations from a re-analysis of the deposited data

Results flagged for a closer look

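The change of Cyp2c70 on HFD relative to ND differed between feeding times by 2.61 on the log2 scale in the test of the difference itself (unadjusted p = 0.00086, adjusted p = 0.284 by limma over all features). At 3 months both HFD mice lay below both ND mice, and at 9 months both lay above. The difference failed the correction for multiple tests, and leaving out 1 mouse at a time gave 2.19 to 3.04.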

How the results depend on the processing

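With 2 mice a group, diet on separate slides and feeding time on separate slide rows, the calls rest on few values; all 16 probes were well above background on all arrays. Of 45 values of single genes followed under each alternative, 35 to 45 kept their direction and their side of the threshold. Under quantile normalization 7 turned sign and 3 lost their call, under normexp with quantile normalization 7 and 1, 7 and 1 also in the values of the authors, under the mean of all probes of a gene 4 and 2, with no filter on dim probes 0 and 6, and under the replicate block 0 and 2, while trend and robust moderation added 1 call; the cause was not tested, except that no filter means more features tested. The filter on all 8 arrays and the rule on saturated spots changed none. Slide as a block could not be fitted, since each slide holds 1 diet, and was not run.

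At 3 months the HFD over ND change of Cyp2c37 was 0.11, 0.19 and 0.22 under quantile normalization, normexp with quantile normalization and the value table, that of Cyp2c50 0.05, 0.08 and 0.07, and that of Cyp2e1 0.27 under each. Cyp3a13 was at 0.01 under quantile normalization and at 0.13 as the mean of its probes, and Cyp3a25 at 0.03 in the value table. At 9 months Cyp3a11 was at 0.14, 0.21 and 0.16 in the same order, Cyp2c50 at 0.04 under normexp, and Cyp2e1 at -0.27 as the mean of its probes. Between 3 and 9 months on HFD, Cyp2e1 was at -0.12, -0.08, -0.08 and, as the mean of its probes, -0.09; on ND it was at 0.07, 0.09, 0.09 and 0.06.

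Among the 10 genes, the 1 call at 3 months became 0 under quantile normalization, no filter and the replicate block and 2 with trend and robust moderation, and the 1 call at 9 months became 0 with no filter. On ND over time, 2 calls became 1 under quantile normalization, the mean of probes and the replicate block and 0 with no filter. Over both times, 2 became 1 under each of the 3 other scalings and 0 with no filter.

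Over all features, no filter gave 68 calls at 3 months in place of 1045, 274 at 9 months in place of 1670, 2386 over both times in place of 4453, 5 on ND over time in place of 209 and 0 on HFD over time in place of 2. On HFD over time quantile normalization gave 61 calls (37.7% higher, against 50% of 2), normexp 66 (33.3%), the authors' values 70 (31.4%), the filter on all arrays 16, and trend and robust moderation 19. On ND over time trend and robust moderation gave 324. For the difference between times, quantile normalization, the filter on all arrays and trend and robust moderation gave 1 each in place of 0. Without a filter the median of all features moved to 0.25 at 3 months and 0.30 at 9 months, on the log2 scale, while the values of the 10 genes stayed as they were.

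The replicate block gave 0 calls on HFD over time and 56 on ND. The mouse numbers did not pair the mice, since deviations of same-numbered mice correlated at -0.02 to 0.14 between groups.

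Leaving out 1 array at a time gave 0 to 2232 features called at 3 months, 365 to 2505 at 9 months, 0 to 3 for the difference, 0 to 1933 on HFD over time, 0 to 340 on ND over time and 1840 to 5949 over both times. Among the 10 genes the calls were 0 to 2 at 3 months, 0 to 3 on HFD over time, 0 to 2 on ND over time and 0 to 4 over both times. The HFD over ND change at 9 months turned sign for Cyp1a2 (-0.62 to 0.21), Cyp2c37 (-0.41 to 0.05), Cyp2e1 (-0.33 to 0.43), Cyp3a11 (-0.75 to 0.61) and Cyp3a13 (-0.48 to 0.14), and at 3 months for Cyp3a13 (-0.17 to 0.05). Over time it did so for Cyp2e1 on HFD (-0.15 to 0.61) and Cyp3a25 on ND (-0.23 to 0.57). The widest counts over all features came without ND 3 months replicate 1 or 2, without ND 9 months replicate 2 and without HFD 9 months replicate 1 or 2. Among the 10 genes, the 4 calls over both times came without ND 9 months replicate 1.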

Other observations

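Enzymes that act on foreign compounds beside the P450 genes moved in both directions, as did features of the whole array. Of phase 1 enzymes outside the P450 family, measured for 30 of 31, 4 rose and 3 fell on HFD over both feeding times, with a median log2 change of -0.07 that was 0.15 to 0.23 under the other scalings. In that comparison 10.3% of all features were called higher and 11.8% lower, so these counts are close to that background. The carboxylesterase gene Ces2c fell on HFD by -1.54 ± 0.27 at 3 months and by -1.42 ± 0.27 at 9 months (SE; adjusted p of 0.0336 and 0.0323 by limma). The fatty aldehyde dehydrogenase gene Aldh3a2 rose by 1.36 ± 0.25 at 3 months (adjusted p = 0.0384). Another carboxylesterase gene, Ces2e, rose on HFD at 9 months by 1.42 ± 0.28 (adjusted p = 0.0368) and fell between 3 and 9 months on ND by -2.03 ± 0.28 (adjusted p = 0.0407), averaging 6.73 in HFD 9 months mice and 5.32 in ND 9 months mice. Among conjugating enzymes the sulfotransferase gene Sult1c2 rose on HFD at 9 months by 3.28 ± 0.29 (9.73-fold, adjusted p = 0.00671), and the glutathione transferase gene Gstp1 fell at 3 months by -1.93 ± 0.37 (adjusted p = 0.0425). The 2 comparisons of Ces2e share the ND 9 months mice. All calls of single genes in this paragraph rest on 2 mice a group, and each diet was on its own slide. They were not followed under the other scalings or with arrays left out.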
